A study of Danio rerio with 12 samples.

Results

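Among the zebrafish genes that still carry the provisional name of a genomic clone or cDNA, 76 separated the eyes of akr7a3-/- zebrafish from those of akr7a3+/+ zebrafish without overlap. They were chosen from the measured levels by 4 conditions. The deposited name had to begin with si:, zgc:, CABZ, CR, BX or CU, the mean over all 12 eyes had to reach 1 FPKM, all 6 akr7a3-/- eyes had to lie on the same side of all 6 akr7a3+/+ eyes, and the genotype means had to differ by at least 1.5-fold. The table held 25432 genes, 6095 had such a name, 2415 of these reached the mean, and 76 met every condition, 41 of them higher and 35 lower in akr7a3-/- eyes. FPKM is the number of sequenced fragments per kilobase of a gene's counted length scaled to the reads of the library. It accounts for gene length and library depth but not for differences in the make-up of the libraries. Because these levels chose the genes, their genotype differences are given as a description and without a test.

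The samples were whole eyes of adult zebrafish, 6 akr7a3-/- and 6 akr7a3+/+, read as strand-specific polyA libraries. The akr7a3-/- fish descend from embryos of the Tg(fli1:EGFP) line that were injected with Cas9 mRNA and a guide to exon 1 of akr7a3, which left a short insertion, a shifted reading frame and an early stop. The transgene makes blood vessel cells fluorescent, and the sources used here do not say whether the akr7a3+/+ eyes came from the same clutches as the mutants or carried it. akr7a3 encodes an aldo-keto reductase, an enzyme that reduces reactive aldehydes to alcohols, and the study examined what its loss does in the eye. The age and sex of the fish, the hour of collection and whether each eye came from a separate fish are not given in the sources used here, so the spread between eyes may be partly technical.

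Clone names are placeholders. Names with si: came from gene models drawn by hand on sequenced clones and end in the clone's own code, names with zgc: came from full-length cDNAs of a zebrafish collection, and names such as CABZ01112387.1 or CU467905.1 are built from the sequence record that held the model. A name of this kind says where a gene was found and nothing of what it does, and it is replaced once an orthologue is recognised. Such genes are therefore seldom part of pathway lists, and some of them already have a symbol in newer annotations. Of the 76 genes, 67 were found in the current list of zebrafish gene symbols, and 24 of these had a symbol of their own by now. The 52 without one include the genes not found in the list, for which the list says nothing. Of the 52 genes that could be matched to an annotated RefSeq gene, 51 were annotated as protein coding and 1 as a long non-coding RNA.

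akr7a3 (ENSDARG00000016649) had 0.267, 0.354 and 0.414 FPKM (lowest, median, highest) in akr7a3-/- eyes, against 1.35, 2.15 and 2.65 FPKM in akr7a3+/+ eyes. The genotypes did not overlap for the targeted gene, and its log2 fold change was -1.56 ± 0.14 (SE, n = 6 each; limma, Benjamini-Hochberg adjusted p = 2.66e-05). The recovered depth was 22237970 to 35016388 reads in akr7a3-/- eyes and 21194609 to 34935342 reads in akr7a3+/+ eyes. Of 18473 genes tested with limma, 2133 had an adjusted p under 0.05 (11.5%), 1068 higher (5.78%) and 1065 lower (5.77%) in akr7a3-/- eyes. One library stood apart in its lens content: 10 lens markers summed to 85.3 FPKM in akr7a3-/- replicate 1, the lowest of all eyes, with a median of 2582 FPKM over the akr7a3-/- eyes and sums of 2121 to 4454 FPKM in akr7a3+/+ eyes. In whole eyes a lower level can come from fewer cells of a type or from less RNA per cell, and these cannot be told apart.

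The share of clone-named genes that met all conditions was close to the share among all genes. The background for the same conditions was 553 of 16879 genes averaging at least 1 FPKM (3.28%), 283 higher (1.68%) and 270 lower (1.6%) in akr7a3-/- eyes. For comparison, 76 of 2415 clone-named genes (3.15%) and 477 of 14464 other genes (3.3%) did so. Without the condition on the size of the difference, 1189 of the 16879 genes did not overlap (7.04%). This share was lower in clone-named genes, at 126 of 2415 (5.22%), than in other genes, at 1063 of 14464 (7.35%). Under all conditions the prefixes gave similar shares. These were 46 of 1412 genes for si:, 17 of 518 for zgc: and 8 of 288 for CABZ. For BX 2 of 84, for CU 2 of 64 and for CR 1 of 49 genes passed. The 76 genes had a median level of 8.89 FPKM over the 12 eyes, against 3.80 FPKM in the clone-named genes that did not pass and 7.26 FPKM in other genes. Their median counted length was 1968 bases, between 471 and 8108.

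None of the 76 genes was near on/off, defined as a mean under 0.5 FPKM in the lower genotype, and all 76 were graded. Among the 477 other genes that met the same conditions, 3 were near on/off, so such genes were rare in both sets. The targeted gene akr7a3 was 1 of these 3, with a mean of 0.348 FPKM in akr7a3-/- eyes. Of the 76 genes the nearest to on/off was si:dkey-18a10.3, with a mean of 0.677 FPKM in akr7a3-/- eyes. A lower mean under 1 FPKM was found in 7 of the 76 genes. The differences of the genotype means ran from 1.5-fold to 25-fold, with a median of 1.87-fold. At least 2-fold was reached by 24 genes, 12 in each direction, and at least 3-fold by 12 genes, 5 higher and 7 lower in akr7a3-/- eyes. The few genes with a large difference were thus spread over both directions, and most of the 76 differed by less than 2-fold.

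**Figure D1:**
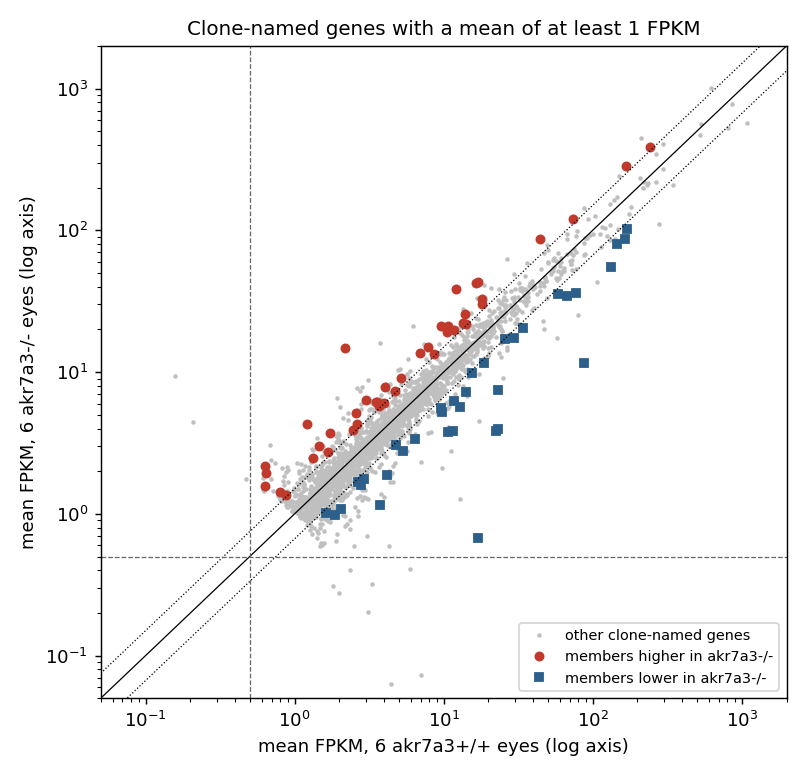
Mean FPKM of each clone-named gene averaging at least 1 FPKM in 6 akr7a3-/- eyes (vertical axis) against 6 akr7a3+/+ eyes (horizontal axis), both log axes. Red points are the 41 genes higher and blue squares the 35 genes lower in akr7a3-/- eyes, grey points are the others, the dotted lines mark a 1.5-fold difference and the dashed lines 0.5 FPKM. No red or blue symbol lies beyond a dashed line, the lowest blue square is si:dkey-18a10.3, and grey points far from the diagonal are genes whose eyes overlapped between the genotypes. 1 gene lies outside the plotted range.

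The gene with the greatest difference was si:dkey-18a10.3 (ENSDARG00000090814), on chromosome 10, which has no symbol of its own. It had 0.253, 0.702 and 1.08 FPKM (lowest, median, highest of 6 eyes here and below) in akr7a3-/- eyes, against 12.1, 14.4 and 26.8 FPKM in akr7a3+/+ eyes. The highest akr7a3-/- eye lay 11.2-fold below the lowest akr7a3+/+ eye, and the means differed 25-fold. It was counted in every eye, with 7 to 34 reads in akr7a3-/- eyes and 362 to 866 reads in akr7a3+/+ eyes, so a residual level in akr7a3-/- eyes rests on few reads.

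A further group of 3 uncharacterised genes was more than 5-fold lower in akr7a3-/- eyes. zgc:153911 (ENSDARG00000002509), on chromosome 13, had 7.90, 12 and 14.2 FPKM in akr7a3-/- eyes, against 39.8, 91.4 and 134 FPKM in akr7a3+/+ eyes, 7.53-fold lower by the means. The akr7a3-/- eyes had a mean of 11.6 ± 2.55 FPKM, and the akr7a3+/+ eyes were spread over a wider range, with a mean of 87.7 ± 31.5 FPKM (SD over 6 eyes). si:dkeyp-57d7.4 (ENSDARG00000101597), on chromosome 1, had 1.82, 3.39 and 7.27 FPKM in akr7a3-/- eyes, against 16.8, 23.0 and 32.5 FPKM in akr7a3+/+ eyes, 5.86-fold lower. si:ch211-132b12.7 (ENSDARG00000068374), on chromosome 18, had 2.95, 3.76 and 5.36 FPKM in akr7a3-/- eyes, against 17.5, 21.2 and 33.0 FPKM in akr7a3+/+ eyes, 5.80-fold lower. In each of the 3 genes the nearest eyes of the genotypes were more than 2-fold apart, at 2.80-fold, 2.31-fold and 3.26-fold in the order given.

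The next 6 genes in this direction were 2.29-fold to 3.21-fold lower. CR628323.2 (ENSDARG00000053062), now gje1b, belongs to the gap junction protein family and in zebrafish and mouse its relatives are known from the lens. It had 0.238, 1.05 and 2.23 FPKM in akr7a3-/- eyes, against 2.37, 3.77 and 4.99 FPKM in akr7a3+/+ eyes. Its lowest value stood in akr7a3-/- replicate 1, the eye with the lowest lens marker sum, and the genotypes were 1.06-fold apart at their nearest eyes. Without that eye the means were 1.34 ± 0.695 FPKM in 5 akr7a3-/- eyes and 3.72 ± 1.17 FPKM in 6 akr7a3+/+ eyes (SD), 2.77-fold lower in place of 3.21-fold. BX547934.2 (ENSDARG00000100427) also had its lowest value in that eye, at 1.74 FPKM, and was 2.01-fold lower without it, in place of 2.29-fold. The part of the lens content in both differences was not tested.

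si:ch211-13f8.1 (ENSDARG00000093342), on chromosome 2, had 6.37, 7.14 and 9.72 FPKM in akr7a3-/- eyes, against 19.1, 23.5 and 26.9 FPKM in akr7a3+/+ eyes. Its genotypes were 1.97-fold apart at the nearest eyes and 3.08-fold by the means. si:ch211-133l5.7 (ENSDARG00000095633), now smim24 and named as a small integral membrane protein, had 2.21, 3.57 and 7.11 FPKM in akr7a3-/- eyes, against 7.97, 11.5 and 14.6 FPKM in akr7a3+/+ eyes, 3.04-fold lower. si:ch211-133l5.4 (ENSDARG00000092533), found on the same clone, had 2.44, 3.80 and 5.07 FPKM in akr7a3-/- eyes, against 8.44, 10.03 and 14.4 FPKM in akr7a3+/+ eyes, 2.79-fold lower. si:ch211-81a5.8 (ENSDARG00000070972), on chromosome 19, was the most abundant of this group, with 39.7, 50.2 and 73.8 FPKM in akr7a3-/- eyes and 83.6, 140 and 191 FPKM in akr7a3+/+ eyes, 2.4-fold lower.

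In the other direction si:ch211-113j13.2 (ENSDARG00000040701), on chromosome 15, stood first. It is now kcnj20, by its symbol an inward-rectifier potassium channel, a class of channels that holds the resting potential of many cells, Mueller glia among them. It had 9.84, 12.5 and 28.9 FPKM in akr7a3-/- eyes, against 0.368, 1.81 and 5.31 FPKM in akr7a3+/+ eyes, 6.81-fold higher by the means. The spread was wide in the akr7a3+/+ eyes, with a coefficient of variation of 90.7%, and the nearest eyes were 1.85-fold apart. The model of igflr1, a receptor gene, overlaps it in the reference, and igflr1 had 7.49 ± 4.13 FPKM in akr7a3-/- eyes and 3.67 ± 3.11 FPKM in akr7a3+/+ eyes (SD over 6 eyes; limma log2 fold change 1.20 ± 0.53 SE, adjusted p = 0.167). How reads of overlapping genes were assigned is not given in the sources used here.

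Among the uncharacterised genes higher in akr7a3-/- eyes, si:ch211-284e13.6 (ENSDARG00000092354), on chromosome 5, had the widest gap. It had 31.5, 39.1 and 42.6 FPKM in akr7a3-/- eyes, against 9.59, 11.5 and 15.3 FPKM in akr7a3+/+ eyes, 3.16-fold higher by the means and 2.05-fold apart at the nearest eyes. si:dkeyp-92c9.2 (ENSDARG00000036105), on chromosome 19, had 33.5, 41.0 and 51.7 FPKM in akr7a3-/- eyes, against 12.5, 16.3 and 20.5 FPKM in akr7a3+/+ eyes, 2.58-fold higher. si:ch211-276a17.5 (ENSDARG00000096398) had 27.6, 42.4 and 57.7 FPKM in akr7a3-/- eyes, against 12.9, 16.3 and 24.0 FPKM in akr7a3+/+ eyes, 2.52-fold higher. The last of these came within 1.15-fold between the genotypes, whereas si:dkeyp-92c9.2 kept a gap of 1.64-fold.

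si:ch211-132f19.7 (ENSDARG00000043141), on chromosome 17, had 19.8, 20.4 and 24.9 FPKM in akr7a3-/- eyes, against 6.69, 9.28 and 13.3 FPKM in akr7a3+/+ eyes, 2.20-fold higher. si:ch211-157p22.10 (ENSDARG00000077155), now tmem116 and named as a transmembrane protein, had 2.34, 4.02 and 4.39 FPKM in akr7a3-/- eyes, against 1.34, 1.64 and 2.31 FPKM in akr7a3+/+ eyes, 2.17-fold higher. Its genotypes all but touched, at 1.02-fold.

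The 4 remaining genes of the upper 10 had low levels. si:dkeyp-122a9.1 (ENSDARG00000091954), the long non-coding RNA, had 2.91, 3.68 and 7.29 FPKM in akr7a3-/- eyes, against 0, 1.33 and 2.69 FPKM in akr7a3+/+ eyes, 3.56-fold higher. It had 0 reads in 2 akr7a3+/+ eyes, where it was not detectable at this depth, and it was the only one of the 76 genes with an eye at 0. CU467905.1 (ENSDARG00000112575) had 1.11, 2.17 and 3.26 FPKM in akr7a3-/- eyes, against 0.298, 0.645 and 0.964 FPKM in akr7a3+/+ eyes, 3.45-fold higher. si:ch211-117c9.1 (ENSDARG00000090179) had 1.27, 1.98 and 2.57 FPKM in akr7a3-/- eyes, against 0.268, 0.514 and 1.12 FPKM in akr7a3+/+ eyes. With 42 to 55 reads in akr7a3-/- eyes and 7 to 37 reads in akr7a3+/+ eyes, its 3.04-fold difference rests on few reads. si:dkey-165a24.9 (ENSDARG00000090052), on chromosome 7, was 2.51-fold higher, at 1.30 to 1.96 FPKM in akr7a3-/- eyes and 0.474 to 1.1 FPKM in akr7a3+/+ eyes.

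**Figure D2:**
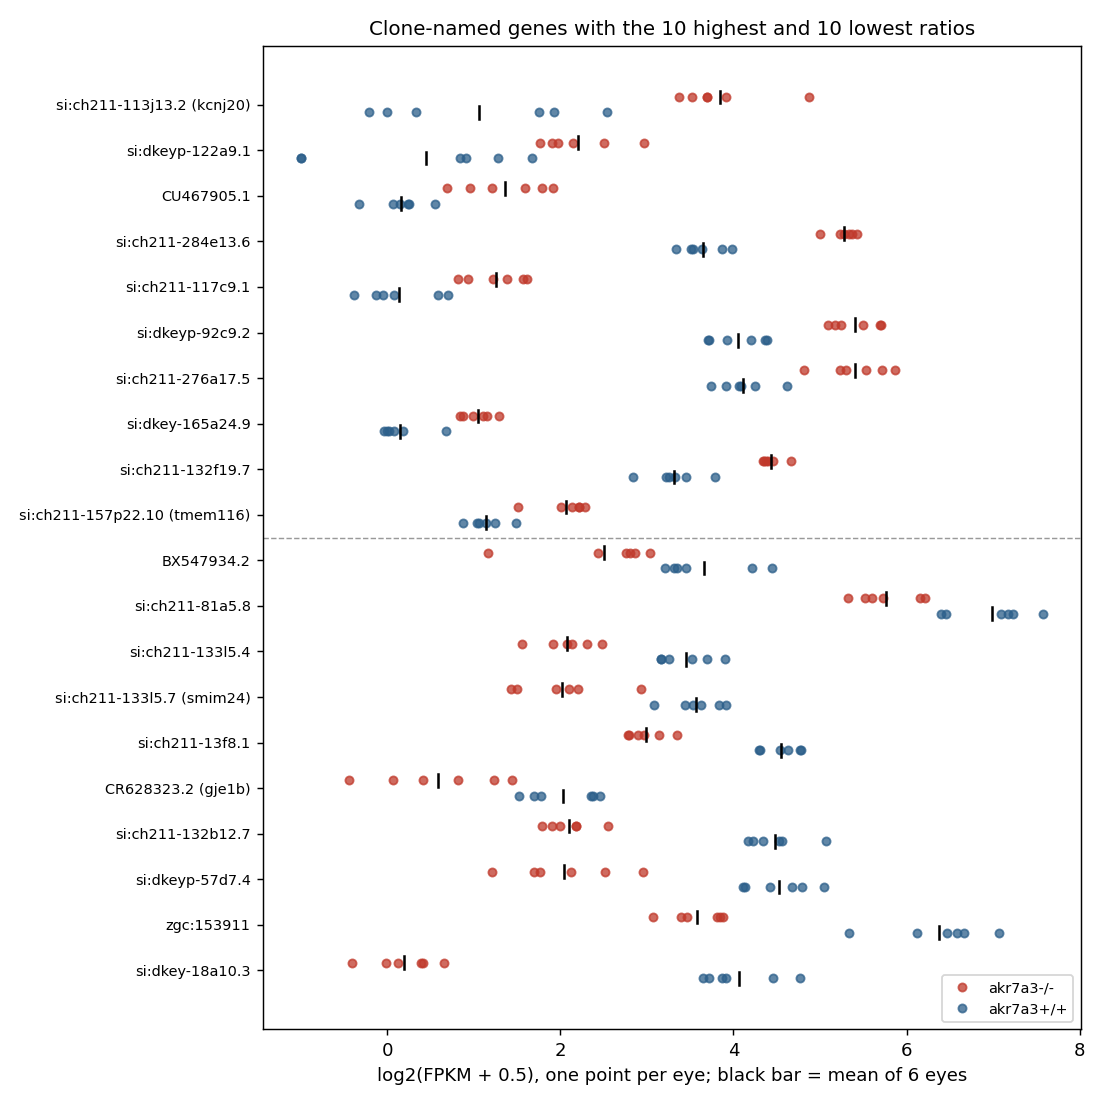
log2(FPKM + 0.5) of every eye (horizontal axis) for the 10 genes with the highest and, under the dashed line, the 10 with the lowest ratio of akr7a3-/- to akr7a3+/+ means. Each point is 1 eye, red for akr7a3-/- and blue for akr7a3+/+, and each black bar is the mean of 6 eyes on this scale. The rows of si:dkey-18a10.3, zgc:153911, si:dkeyp-57d7.4 and si:ch211-132b12.7 show a clear gap between the colours, while those of tmem116, si:dkeyp-122a9.1 and gje1b nearly meet.

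The abundant genes differed by 1.59-fold to 2.4-fold. In at least one genotype 7 of the 76 genes reached a mean of 100 FPKM, and si:ch211-81a5.8 and zgc:162730, 1.9-fold lower, had the larger differences among them. si:ch211-195b13.1, on chromosome 19, was the most abundant, with 314, 362 and 488 FPKM in akr7a3-/- eyes and 197, 222 and 309 FPKM in akr7a3+/+ eyes, 1.59-fold higher, and its genotypes lay 1.02-fold apart. si:busm1-57f23.1, on chromosome 10, had 252, 276 and 318 FPKM in akr7a3-/- eyes and 122.3, 170 and 201 FPKM in akr7a3+/+ eyes, 1.70-fold higher with a gap of 1.26-fold. zgc:73226, on chromosome 5, was the most abundant gene lower in akr7a3-/- eyes, with 80.1, 103 and 119 FPKM there and 145, 171 and 191 FPKM in akr7a3+/+ eyes.

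Of the 24 genes with a symbol in the current list, 15 were higher and 9 lower in akr7a3-/- eyes, and 5 differed by at least 2-fold. Symbols in capitals follow the human gene. Genes with a known kind of product were found on both sides. zhx3a, whose human relative is a homeobox repressor of transcription, had 21.15 ± 3.12 FPKM in akr7a3-/- eyes and 10.8 ± 1.07 FPKM in akr7a3+/+ eyes, 1.96-fold higher. mala.2 was 2.11-fold higher, and its genotypes came within 1.05-fold. sun1a, a protein of the inner nuclear membrane that links the nucleus to the cytoskeleton, had 7.32 ± 0.367 FPKM in akr7a3-/- eyes and 4.74 ± 0.780 FPKM in akr7a3+/+ eyes, 1.54-fold higher. RIN2, in humans an activator of the endosomal Rab5 protein, was 1.63-fold higher, ankrd50, in humans a part of endosomal recycling, was 1.58-fold higher, and KCTD5, in humans an adaptor of a ubiquitin ligase, was 1.55-fold higher. LRFN2, in mammals an adhesion protein of synapses, was 1.52-fold higher, at 6.07 ± 0.678 FPKM in akr7a3-/- eyes and 3.99 ± 0.821 FPKM in akr7a3+/+ eyes (SD over 6 eyes).

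Lower in akr7a3-/- eyes was SHANK2, in mammals a scaffold of the postsynaptic density, with 9.78 ± 0.806 FPKM in akr7a3-/- eyes and 15.4 ± 1.82 FPKM in akr7a3+/+ eyes, 1.58-fold lower. PDE1C, a phosphodiesterase regulated by calcium and calmodulin, had 1.67 ± 0.106 FPKM in akr7a3-/- eyes and 2.66 ± 0.710 FPKM in akr7a3+/+ eyes, 1.59-fold lower. cp110, a centriole protein that in human cells caps the centriole and holds back the growth of cilia, was 1.56-fold lower. SMIM36 had 34.7 ± 7.56 FPKM in akr7a3-/- eyes and 67.4 ± 8.34 FPKM in akr7a3+/+ eyes, 1.94-fold lower. It shares with smim24 the name of a small integral membrane protein, and whether they are related was not examined. Genes with products of the synapse, LRFN2 and SHANK2, thus lay on opposite sides.

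The absence of overlap covered gaps of very unequal width. The nearest eyes of the genotypes were at least 1.5-fold apart in 12 of the 76 genes and less than 1.1-fold apart in 25. Set against counting error alone, 39 genes had their nearest eyes within 2 standard deviations of the read counts and 37 had them further apart. The eye nearest to the other genotype was akr7a3-/- replicate 1 in 19 genes, akr7a3-/- replicate 7 in 18 and akr7a3+/+ replicate 6 in 22. So no single eye bounded most of the gaps.

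**Figure D3:**
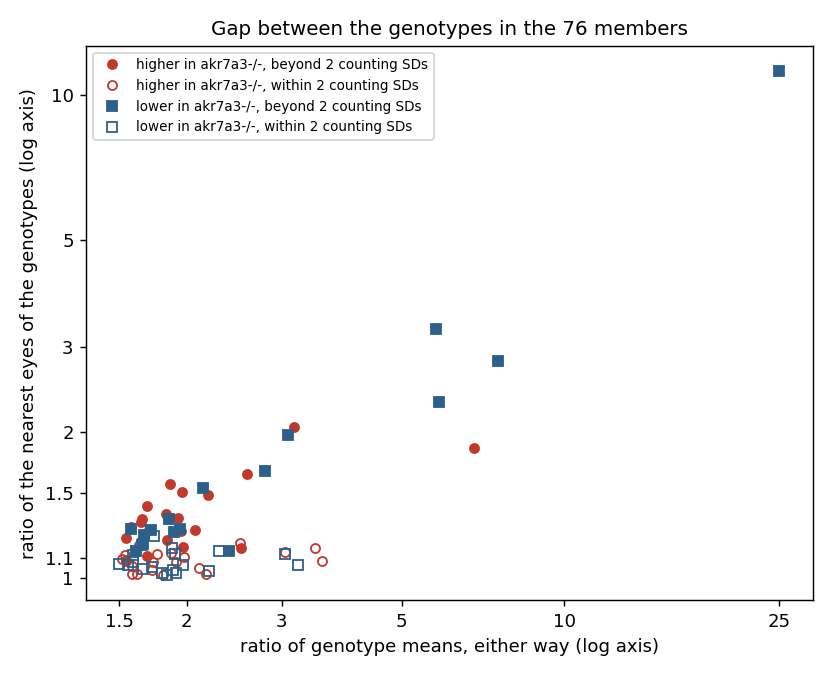
Ratio of the nearest eyes of the genotypes (vertical axis, log) against the ratio of the genotype means, either way (horizontal axis, log), for the 76 genes. Red circles are higher and blue squares lower in akr7a3-/- eyes, and open symbols mark the 39 genes whose nearest eyes lay within 2 counting standard deviations. si:dkey-18a10.3 stands alone at the upper right, at 25 by the means and 11.2 by the nearest eyes, and most open symbols lie under 1.2.

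At the limit of 1.5-fold the conditions divided genes with nearly equal values. The 3 genes just inside were si:dkeyp-72g9.4, 1.5-fold lower at 17.2 ± 2.26 FPKM in akr7a3-/- eyes and 25.9 ± 4.88 FPKM in akr7a3+/+ eyes, LRFN2 at 1.52-fold higher and SBK1, a protein kinase by its name, at 1.54-fold higher. Just outside were CABZ01112461.1, with 6.85 ± 0.752 FPKM in akr7a3-/- eyes and 4.60 ± 0.361 FPKM in akr7a3+/+ eyes, CABZ01081294.1, with 1.79 ± 0.297 FPKM in akr7a3-/- eyes and 2.66 ± 0.309 FPKM in akr7a3+/+ eyes, and si:dkey-35m8.1, with 1.91 ± 0.272 FPKM in akr7a3-/- eyes and 1.30 ± 0.132 FPKM in akr7a3+/+ eyes (SD over 6 eyes). When each eye was left out in turn, 66 of the 76 genes passed every time and 10 stopped passing without 1 eye, among them si:dkeyp-72g9.4, LRFN2, SBK1, sun1a, cp110 and PDE1C. CABZ01112387.1 had 5.7 to 7.14 FPKM in akr7a3-/- eyes and 0.083 FPKM in akr7a3+/+ replicate 1, against up to 5.49 FPKM in the other akr7a3+/+ eyes, and its difference of 1.73-fold became 1.45-fold without that eye.

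The spread within the genotypes is given as a description, because the condition of no overlap favours genes with a small spread. The median coefficient of variation of the 76 genes was 15.9% in akr7a3-/- eyes and 20.6% in akr7a3+/+ eyes. In clone-named genes that did not pass, whose median level was lower (3.80 against 8.89 FPKM), the median coefficient of variation was 18.4% and 21.2%. It was higher in akr7a3-/- eyes than in akr7a3+/+ eyes for 28 of the 76 genes (36.8%), against 39.4% of the clone-named genes that did not pass. After removal of the genotype means, the median Pearson correlation over the 12 eyes was 0.09 for pairs that were both higher, 0.08 for pairs that were both lower and -0.04 for pairs of opposite direction, against 0.04 for clone-named genes that did not pass. These pairs share libraries and are a description only.

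The position of the genes, which was not used to choose them, was taken from the RefSeq annotation of a newer assembly, so chromosomes and gene order are given without coordinates. The 52 genes with a chromosome lay on 22 chromosomes. Chromosome 11, which carries akr7a3, held 5 of the 52 (9.62%), 3 higher and 2 lower in akr7a3-/- eyes, against 41 of 1576 clone-named genes that did not pass (2.60%) and 530 of 15370 of all genes averaging at least 1 FPKM (3.45%). The gene nearest to akr7a3 was si:ch211-222l21.1, with 17 annotated genes between them. cp110 (si:ch73-100l22.3) was 97 annotated genes away, mala.2 (zgc:153665) 234, zhx3a (si:ch211-232b12.5) 374 and arhgap46a (zgc:92107) 388. Chromosomes 5 and 15 also held 5 of the 52 genes each, and the share of all genes on those chromosomes was not computed. The larger share on chromosome 11 rests on 5 genes and was not tested.

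si:ch211-222l21.1 (ENSDARG00000076532) had 19.0, 20 and 23.6 FPKM in akr7a3-/- eyes, against 27.6, 30.3 and 54.3 FPKM in akr7a3+/+ eyes, 1.65-fold lower. The highest value stood in akr7a3+/+ replicate 1, and without that eye the difference was 1.46-fold, under the limit of 1.5-fold. The others on the chromosome had 2.19, 3.14 and 3.69 FPKM in akr7a3-/- eyes against 3.91, 4.89 and 5.77 FPKM in akr7a3+/+ eyes for cp110, and 17.8, 20.2 and 25.4 FPKM in akr7a3-/- eyes against 9.42, 11.1 and 11.9 FPKM in akr7a3+/+ eyes for zhx3a. mala.2 had 4.11, 5.76 and 11.8 FPKM in akr7a3-/- eyes, against 1.68, 2.99 and 3.92 FPKM in akr7a3+/+ eyes, and arhgap46a had 18.1, 20.4 and 20.8 FPKM in akr7a3-/- eyes, against 9.02, 12.1 and 12.8 FPKM in akr7a3+/+ eyes.

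The neighbours of the 52 genes with a position were not chosen by their values and could be tested. The nearest tested gene on each side was called in 15 of 104 cases (14.4%; limma, adjusted p under 0.05), 9 of them in the same direction as its neighbour. The corresponding share for clone-named genes that did not pass was 325 of 3074 (10.6%), 182 in the same direction, and for all genes tested 11.5%. The called neighbour with the largest change went against its clone-named gene. kif26aa, a member of the kinesin family, had 5.58 ± 0.407 FPKM in akr7a3-/- eyes and 2.36 ± 0.481 FPKM in akr7a3+/+ eyes (SD over 6 eyes), a log2 fold change of 1.1 ± 0.1 (SE, limma adjusted p = 3.05e-05), next to si:dkey-1h6.8, which was lower. gucy2d, a guanylate cyclase of photoreceptors, fell to 46.0 ± 16.1 FPKM in akr7a3-/- eyes, against 73.4 ± 18.1 FPKM in akr7a3+/+ eyes (limma adjusted p = 0.0433), next to si:ch211-284e13.6, which was higher.

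Against their clone-named gene also went cables2a and lzts3a, lower beside genes that were higher (limma adjusted p = 0.00191 and 0.00543). So did msi1 and zgc:153115, higher beside genes that were lower (limma adjusted p = 0.0162 and 0.0321). The called neighbours named next moved with their clone-named gene. hif1al, next to zgc:152863, had 10.01 ± 3.89 FPKM in akr7a3-/- eyes and 5.47 ± 0.366 FPKM in akr7a3+/+ eyes, a log2 fold change of 0.74 ± 0.19 (SE, limma adjusted p = 0.0278). psat1, an enzyme of serine synthesis, lies next to tmem116 and had 19.5 ± 2.27 FPKM in akr7a3-/- eyes and 13.0 ± 3.37 FPKM in akr7a3+/+ eyes (limma adjusted p = 0.0194). rassf6, a Ras-association domain gene next to si:busm1-57f23.1, had 7.01 ± 0.790 FPKM in akr7a3-/- eyes and 4.45 ± 0.654 FPKM in akr7a3+/+ eyes (limma adjusted p = 0.00261). On chromosome 11, phf20a next to arhgap46a had 12.8 ± 0.685 FPKM in akr7a3-/- eyes and 8.88 ± 2.02 FPKM in akr7a3+/+ eyes (limma adjusted p = 0.0102), and trappc10 next to cp110 had 5.39 ± 0.468 FPKM in akr7a3-/- eyes and 6.52 ± 0.325 FPKM in akr7a3+/+ eyes (limma adjusted p = 0.0256). top1l, a topoisomerase gene whose model overlaps zhx3a, had 26.1 ± 2.25 FPKM in akr7a3-/- eyes and 20.5 ± 2.29 FPKM in akr7a3+/+ eyes (SD over 6 eyes; limma adjusted p = 0.0162). Of the 52 genes matched to the reference, 19 overlapped another gene model, 9 of them a tested gene. Of the 16 overlapping tested genes 1, top1l, was called. The model of si:ch73-55i23.1 alone spans 16 gene models and supplied 8 of those 16 tested genes, and its name occurs in 2 rows of the table, so its position is uncertain.

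The names of 46 of the 76 genes spell out a clone, and 14 of these had another tested gene of the same clone. Clone-named genes with a clear difference were already among the 76, so the remaining genes of these clones give no share that can be set against all genes, and examples are given as values. In clone ch211-284e13, si:ch211-284e13.6 was 3.16-fold higher while si:ch211-284e13.4 had 3.76 ± 0.336 FPKM in akr7a3-/- eyes and 2.86 ± 0.577 FPKM in akr7a3+/+ eyes (SD over 6 eyes; limma adjusted p = 0.0572). The remaining tested genes of this clone had limma adjusted p of 0.527 to 0.835. Their log2 fold changes ran from -0.0856 to 0.541. In clone ch211-117c9, si:ch211-117c9.5 had 22.2 ± 4.38 FPKM in akr7a3-/- eyes and 20.7 ± 2.17 FPKM in akr7a3+/+ eyes (limma adjusted p = 0.743), beside a 3.04-fold difference in si:ch211-117c9.1.

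**Figure D4:**
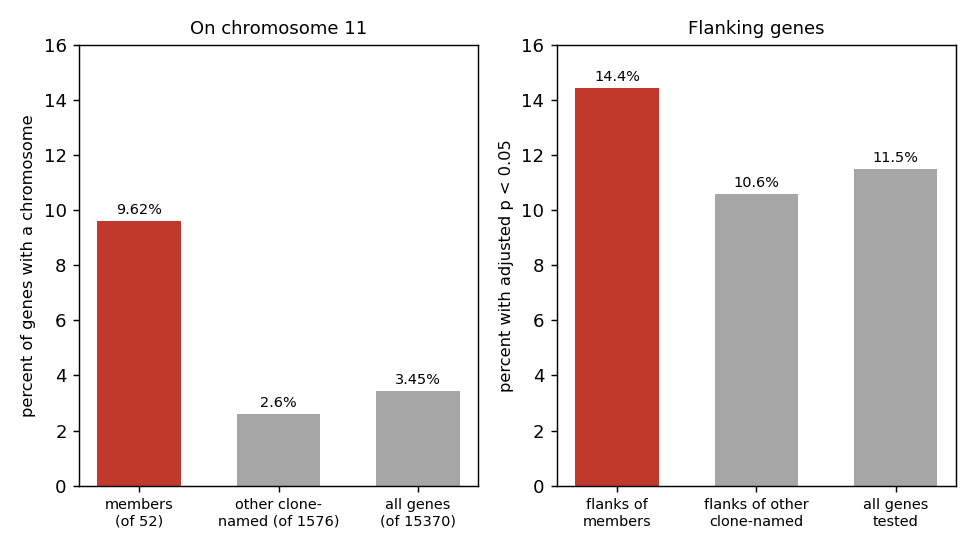
Left, percent of genes with a chromosome that lie on chromosome 11 with akr7a3. Right, percent of tested genes called by limma among the nearest neighbours, beside all genes tested. Red bars are for the 52 of the 76 genes that have a position (9.62% and 14.4%). Grey bars are for clone-named genes that did not pass and for all genes, and the shares were not tested against each other.

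Pairs of the 76 genes that lie close together, with at most 20 annotated genes between them or a shared clone, were compared within the genotypes. Of 6 such pairs, correlated over 12 eyes after removal of the genotype means, with 100000 permutations within genotypes and Benjamini-Hochberg adjustment over the 6, si:ch211-232i5.1 and si:ch211-232i5.3 varied together the most. Pearson's r was 0.91 (permutation p = 0.00096, adjusted p = 0.00576) and the Spearman correlation 0.76 (permutation p = 0.0144, adjusted p = 0.0742), and r was 0.78 without the 2 most extreme eyes. Taken separately, r was 0.61 in the akr7a3-/- eyes and 0.97 in the akr7a3+/+ eyes (n = 6 each, given without a test). si:ch211-232i5.1 had 4.11, 5.08 and 6.47 FPKM in akr7a3-/- eyes, against 1.36, 2.72 and 3.73 FPKM in akr7a3+/+ eyes, and si:ch211-232i5.3 had 5.33, 6.28 and 6.93 FPKM in akr7a3-/- eyes, against 1.89, 3.69 and 4.77 FPKM in akr7a3+/+ eyes. Both come from the same clone, and the sources used here do not say how reads shared by similar or overlapping genes were counted.

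si:ch211-195b13.1 and si:dkeyp-92c9.2, both higher in akr7a3-/- eyes and with 6 annotated genes between them on chromosome 19, had an r of 0.76 (permutation p = 0.0131, adjusted p = 0.0394) and a Spearman correlation of 0.71 (permutation p = 0.0247, adjusted p = 0.0742), and an r of 0.64 without the 2 most extreme eyes. The r of this pair was 0.94 in the akr7a3-/- eyes and 0.63 in the akr7a3+/+ eyes taken separately. The pair of si:ch211-133l5.4 and smim24, from the same clone and both lower, had an r of 0.46 (permutation p = 0.16, adjusted p = 0.239) and a Spearman correlation of 0.31 (permutation p = 0.341, adjusted p = 0.409). The other 3 pairs had r between -0.51 and -0.18 and Spearman correlations between -0.41 and -0.04, with adjusted p of 0.239 or more. They include si:ch211-132b12.7 and zgc:101040 on chromosome 18, 8 annotated genes apart, of which si:ch211-132b12.7 was 5.80-fold lower and zgc:101040 1.87-fold higher in akr7a3-/- eyes. The direction was the same in 4 of the 6 pairs, against 1415 of all 2850 pairs of the 76 genes (49.6%), and the difference was not tested.

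**Figure D5:**
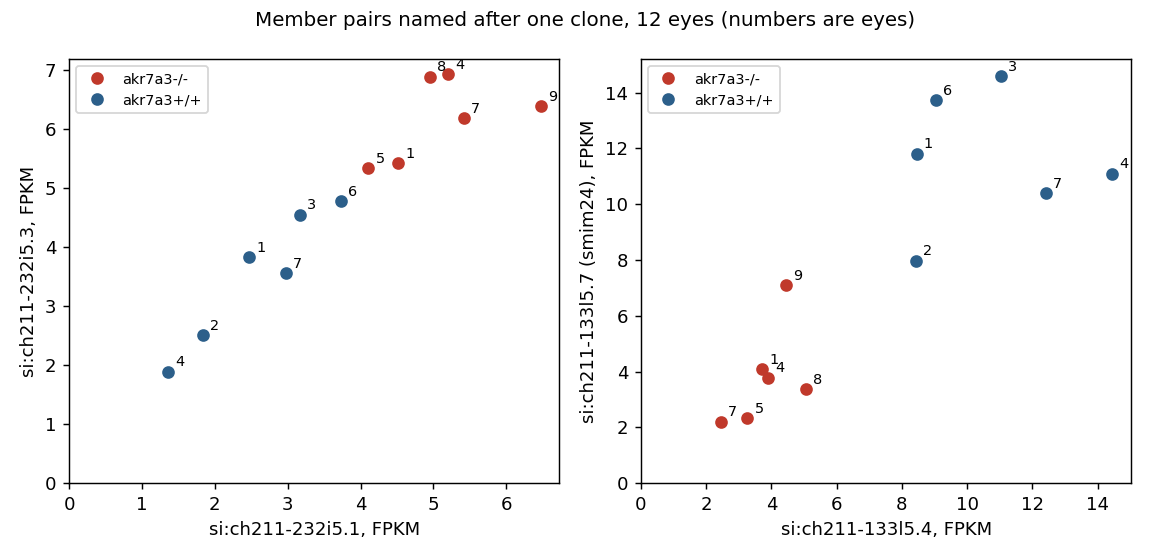
FPKM of both genes of each pair named after one clone in 12 eyes (each axis is the FPKM of 1 gene, the numbers are eyes), red for akr7a3-/- and blue for akr7a3+/+. On the left si:ch211-232i5.1 and si:ch211-232i5.3 follow each other closely in the akr7a3+/+ eyes (r = 0.97) and less so in the akr7a3-/- eyes (r = 0.61), and on the right si:ch211-133l5.4 and smim24 have r of 0.66 in akr7a3-/- eyes and 0.12 in akr7a3+/+ eyes.

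Other cell types and other signals differed between the same eyes. Of 14 muscle markers, 8 were lower and 0 higher by limma, with sums of 759 to 1054 FPKM in akr7a3-/- eyes and 885 to 2080 FPKM in akr7a3+/+ eyes. Of 10 lens markers 0 were called by limma or by voom on recovered reads, and 1 was lower at an unadjusted p under 0.05. All 10 nevertheless had a lower mean in akr7a3-/- eyes, with a median log2 fold change of -1.13. This is a difference of mean logs, in which a very low eye weighs heavily. The lens sums were 85.3 to 4710 FPKM in akr7a3-/- eyes (median 2582), lowest in replicate 1. In akr7a3+/+ eyes they were 2121 to 4454 FPKM (median 3688). How far the fold changes rest on replicate 1 was not tested. Of 12 photoreceptor markers 1 was higher and 3 lower, with sums of 33072 to 40898 FPKM in akr7a3-/- eyes and 20771 to 33847 FPKM in akr7a3+/+ eyes. Of 8 pigment cell markers 1 was lower, at 190.0 to 280.5 FPKM in akr7a3-/- eyes and 238.6 to 348.0 FPKM in akr7a3+/+ eyes. The 6 red blood cell genes gave 7 entries, because hbba1 occurs more than once, and 1 entry was higher. The sums over these entries were 864 to 1708 FPKM in akr7a3-/- eyes and 136 to 1382 FPKM in akr7a3+/+ eyes. Of 6 Mueller glia markers 1 was higher, and of 8 macrophage and lymphocyte markers 1 was lower. Of 5 cornea and skin markers and of 6 endothelium markers 0 were called by limma or voom, and 1 of each list was higher at an unadjusted p under 0.05. No marker on these lists was at 0 in every eye.

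Genes of the circadian clock and immediate-early genes, which follow the hour and recent activity, moved in larger shares. Of 23 tested clock genes 8 were higher and 13 lower, and of 18 immediate-early genes 0 were higher and 15 lower, with sums of 233 to 396 FPKM in akr7a3-/- eyes and 856 to 1259 FPKM in akr7a3+/+ eyes. After removal of the genotype means, 6 of the 76 genes (7.89%) correlated with the photoreceptor sum at 0.8 or more in size over the 12 eyes, against 2.09% of the clone-named genes that did not pass. sun1a, LRFN2, si:ch211-105f12.2, si:dkeyp-122a9.1 and CABZ01112387.1 varied with the sum and zgc:113208 against it. Among akr7a3+/+ eyes the former were lowest, and zgc:113208 highest, in replicates 1 and 3. How far the correlations rest on these eyes was not tested. Without akr7a3+/+ replicate 1, sun1a, LRFN2 and CABZ01112387.1 differed by 1.49-fold, 1.42-fold and 1.45-fold, under the limit of 1.5-fold. The same eyes thus helped to choose these genes. Genes that did not pass also had a lower median level (3.80 against 8.89 FPKM). The shares in this paragraph are therefore a description only. The largest part of the sum is rho, with means of 25140 FPKM in akr7a3-/- eyes and 18011 FPKM in akr7a3+/+ eyes. Of the called photoreceptor markers, arr3a, sagb and pde6c were lower in akr7a3-/- eyes and opn1sw2 higher. The red blood cell sum gave 3 genes (3.95% against 2.69%), sun1a and si:ch73-55i23.1 with it and zgc:113208 against it, so sun1a and zgc:113208 reached 0.8 in size with both sums. The muscle sum gave 2 genes (2.63% against 0.684%), si:ch211-132f19.7 and si:ch73-55i23.1, both against it. The clock sum gave 1 gene, si:dkeyp-57d7.4, with it (1.32% against 0.812%). This sum adds genes that moved in opposite directions. For example, nfil3-5 had means of 330 FPKM in akr7a3-/- eyes and 77.4 FPKM in akr7a3+/+ eyes, and bhlhe40 had 165 and 455 FPKM. The clock sum therefore cannot show how many of the 76 genes follow the clock. The pigment cell sum gave CABZ01049825.1 and the macrophage and lymphocyte sum si:dkey-283b15.2, each against its sum. The other 5 lists, lens included (0 against 1.15%), gave 0. The genotype difference of each sum was removed beforehand, so a 0 for the immediate-early sum cannot show whether the 76 genes follow activity. The part of cell type content, of the clock and of activity in the differences of the 76 genes was not tested.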

How the data were processed

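RNA of whole eyes of 6 akr7a3-/- and 6 akr7a3+/+ adult zebrafish was sequenced as strand-specific polyA libraries. The authors mapped reads to GRCz11 with HISAT2, counted them per gene with featureCounts (version 2.0.3 per the labels) and deposited FPKM values. Annotation release and rules for strand and shared reads are not given in the sources used here. Groups came from the genotype labels. Reads per gene were worked out from the step that 1 read makes in the FPKM values: all 25432 genes gave whole reads (tolerance 0.02, or 0.05 in a second pass). Totals were 21194609 to 35016388 reads per eye. Counting error covers reads, not molecules.

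log2(FPKM + 0.5) was tested by limma 3.58.1 (R 4.3.3) with a variance trend, genotype alone and Benjamini-Hochberg adjustment over the 18473 genes that reached 0.5 FPKM in 6 or more eyes. Fold changes on this scale understate those of low genes. Folds of means are ratios of mean FPKM. The procedure was tested on simulated reads that were independent and had a common dispersion. Differences in cell content between eyes were not simulated, so the simulation does not cover them.

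The genes, lists and tests were chosen with earlier results of these data known. Named by rule were akr7a3, the 10 highest and 10 lowest ratios, genes on the chromosome of akr7a3, 3 genes on each side of the limit and families with at least 2 members, read from the symbols, of which 1 family is not reported here. Other named genes were chosen after their values were seen. Positions and symbols came from RefSeq tables of assembly GRCz12tu. 1 name, si:ch73-55i23.1, occurs in 2 rows. Sequences were not analysed here. Alternatives were other limits, scaling, pseudocounts, filters, a replicate block, voom on the recovered reads and leaving out each eye.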

Additional observations from a re-analysis of the deposited data

Results flagged for a closer look

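In 8 genotype groups of the named genes 1 eye stood apart from the other 5, with a gap to the nearest eye that exceeds Dixon's critical value for 6 samples as a share of the group's range. Chance flags about 1 in 20 groups, and 64 groups were examined. Over all 76 genes there were 11 such groups of 152.

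kcnj20 (si:ch211-113j13.2) had 28.9 FPKM in akr7a3-/- replicate 7 and 9.84 to 14.6 FPKM in the other akr7a3-/- eyes, and it was 5.53-fold higher without that eye. mala.2 (zgc:153665) was high in the same eye, at 11.8 FPKM against 4.11 to 6.64 FPKM, and was 1.75-fold higher without it, in place of 2.11-fold. si:ch211-132f19.7 had 24.9 FPKM in akr7a3-/- replicate 1 and 19.8 to 21.5 FPKM in the others.

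In akr7a3+/+ replicate 1, si:ch211-222l21.1 had 54.3 FPKM against 27.6 to 32.5 FPKM in the other akr7a3+/+ eyes, si:dkey-165a24.9 had 1.1 FPKM against 0.474 to 0.632 FPKM, and arhgap46a (zgc:92107) had 9.02 FPKM against 11.6 to 12.8 FPKM. si:ch211-132b12.7 had 33.0 FPKM in akr7a3+/+ replicate 2 and 17.5 to 23.0 FPKM in the others. si:dkeyp-72g9.4 had 35.4 FPKM in akr7a3+/+ replicate 6 and 22.3 to 26.1 FPKM in the others. The causes were not tested.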

How the results depend on the processing

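The number of genes that met the conditions was 76. It was 24 with a ratio of at least 2, and between 67 and 83 under median-of-ratios scaling, a mean of at least 0.5 or 2 FPKM, medians in place of means, digits after the prefixes and without chromosome 11. It ran from 74 to 92 when each eye was left out, which makes the condition of no overlap easier to meet. The number of near on/off genes was 0. It was 7 with a lower mean under 1 FPKM, 1 (si:dkey-18a10.3) with a ratio of at least 8 in place of the level, and 0 to 1 when each eye was left out: si:ch211-59h6.1 without akr7a3-/- replicate 9 and si:ch211-193i15.2 without akr7a3+/+ replicate 3, neither among the 76. The limma count of 2133 stayed between 1924 and 2303 under the other settings and between 1518 and 2032 when each eye was left out. The split between higher and lower genes moved by under 10 percentage points. Both genotypes share the replicate numbers 1, 4 and 7, whose deviations correlated at 0.08, -0.20 and 0.07. Whether the numbers pair the eyes is not given in the sources used here, and these 3 values cannot settle it. With the replicate block 1924 genes were called, 970 of them higher. Genes without overlap cannot change direction when an eye is left out, the pseudocount changes or replicates are blocked. The absence of reversals there was fixed by the choice of the genes. Of 496 recomputed log2 fold changes of 31 named genes, 490 moved by less than 1 SD, 6 by more and 0 reversed. All 6 came from another pseudocount: with 0.1, CU467905.1 had 1.61, si:ch211-117c9.1 1.55, si:dkey-165a24.9 1.24 and si:dkey-18a10.3 -4.49, and with 1 the values were 0.67 for si:dkey-165a24.9 and -3.38 for si:dkey-18a10.3.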
